A study of Mus musculus with 4 samples.

Results

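The 6 genes described here encode transcription factors of the switch from neurogenesis to gliogenesis: the nuclear factor I family (Nfia, Nfib, Nfic and Nfix), Sox9 and Zbtb20. They were chosen by name, and all 6 are rows of both deposited tables, among 20385 genes listed in both and 16371 genes with enough counts to be tested. The tissue was cerebral cortex, taken on embryonic day 16 (E16) from mice of the C57BL/6 strain. There were 2 libraries of Cd93 KO embryos (KO 5 and KO 6) and 2 of wild type embryos (WT 1 and WT 4), where CD93 is a transmembrane lectin receptor. The labels name no allele or deleted part for the KO, no other agent or transgene in either genotype, and no animal behind a library. The p-values therefore measure the spread between these libraries, which may be technical. One deposited table holds KO 5 with WT 4, and the other holds KO 6 with WT 1.

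Radial glia of the embryonic cortex first produce neurons and later astrocytes. SOX9, a high-mobility-group box factor, induces NFIA in glial precursors of the spinal cord, and both then act together on glial genes. NFI proteins bind DNA as dimers through a conserved amino-terminal domain, and in the cortex NFIA, NFIB and NFIX are needed for timely glial differentiation but are also expressed in young neurons. ZBTB20, a BTB and zinc-finger repressor, promotes astrocyte production from cortical progenitors and is known to repress Pou3f2, the gene of the neuronal factor BRN2. In cortex as a whole, more cells of a type and more RNA per cell cannot be told apart.

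The libraries were sequenced to a like depth, between 16318317 and 17586157 counts. Cd93 itself had 111 and 99 counts in KO 5 and KO 6, against 680 and 409 in WT 1 and WT 4, so its order follows the genotype labels. Its log2 fold change of KO over WT was -2.32, yet edgeR with 4 libraries did not call it (adjusted p 0.21). Neither did limma-voom (adjusted p 0.9998), whereas DESeq2 (adjusted p 3.91e-12) and edgeR with the table as a block (adjusted p 0.000971) did. A gene not called below is therefore not shown to be unchanged. Summed markers of the meninges, ganglionic eminence, endothelium, oligodendrocyte precursors and microglia were highest in WT 1. By their median log2 fold change, meningeal, ganglionic eminence and, less so, microglial markers were also lower in KO than in WT without WT 1. In WT 1 the summed level of 8 meningeal markers was 472 CPM (counts scaled to library size), against 88.3 to 116 CPM in the other 3 libraries. For 10 ganglionic eminence markers it was 742 CPM in WT 1 and 388 CPM in WT 4, against 271 and 399 CPM in KO 5 and KO 6. By this sum KO 6 was not below WT 4. For 6 endothelial markers it was 202 CPM in WT 1 and 114 to 119 CPM elsewhere, with a median log2 fold change of -0.43, or -0.0075 without WT 1. The sum of 5 oligodendrocyte precursor markers was 81.0 CPM in WT 1 and 43.8 to 50.1 CPM elsewhere. Their median log2 fold change was -0.35, or 0.073 without WT 1. The sum of 7 microglial markers was 65.7 CPM in WT 1 and 39.7 to 41.9 CPM elsewhere. Their median was -0.45, or -0.11 without WT 1. The log2 fold change of KO over WT was negative for 10 of 10 ganglionic eminence markers, with both KO libraries below both WT libraries in 6 of them (11.9% of all tested genes), a median of -1.53 and a median of -0.59 without WT 1. Of 7 meningeal markers tested 6 were negative and 5 separated in that way, with a median of -2.79, or -0.89 without WT 1. By edgeR 0 of either list were called, while 6 of 10 and 5 of 7 had an unadjusted p under 0.05. Choroid plexus markers went with the deposited table instead: 4 of them summed to 2.63 and 16.1 CPM in KO 5 and KO 6, against 15.5 and 2.94 CPM in WT 1 and WT 4. Markers of the labelled tissue were present in all 4 libraries: 8 neuronal markers summed to 8112 and 8702 CPM in KO 5 and KO 6 and to 7714 and 8560 CPM in WT 1 and WT 4, and 8 radial glia markers to 1592 and 1450 CPM in the KO libraries and 1712 and 1496 CPM in the WT libraries. In none of these lists was a marker at 0 over the 4 libraries. The part of these markers in the results below was not tested. Values without WT 1 are given beside the fold changes of the 6 factors and of the gene lists.

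None of the 6 factors passed the test of KO against WT, and none separated the genotypes. The edgeR quasi-likelihood test, with p-values adjusted by Benjamini and Hochberg's method, called 0 of the 6 at 0.05, and 0 of 6 had an unadjusted p under 0.05. DESeq2 and limma-voom also called 0 of them, DESeq2 against 0.0489% of all genes. Over all 16371 genes edgeR called 2, or 0.0122%, and 1.94% had an unadjusted p under 0.05. In each of the 6 genes the KO and WT libraries overlapped, whereas they did not overlap in 23.4% of all tested genes. The median log2 fold change of the 6, KO over WT, was 0.14, with 5 values above 0 and 1 below, against a median of -0.0028 over all tested genes. Without WT 1 the median of the 6 was -0.042, and edgeR called 0 of the 6 and 0.259% of all genes tested.

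**Figure D1:**
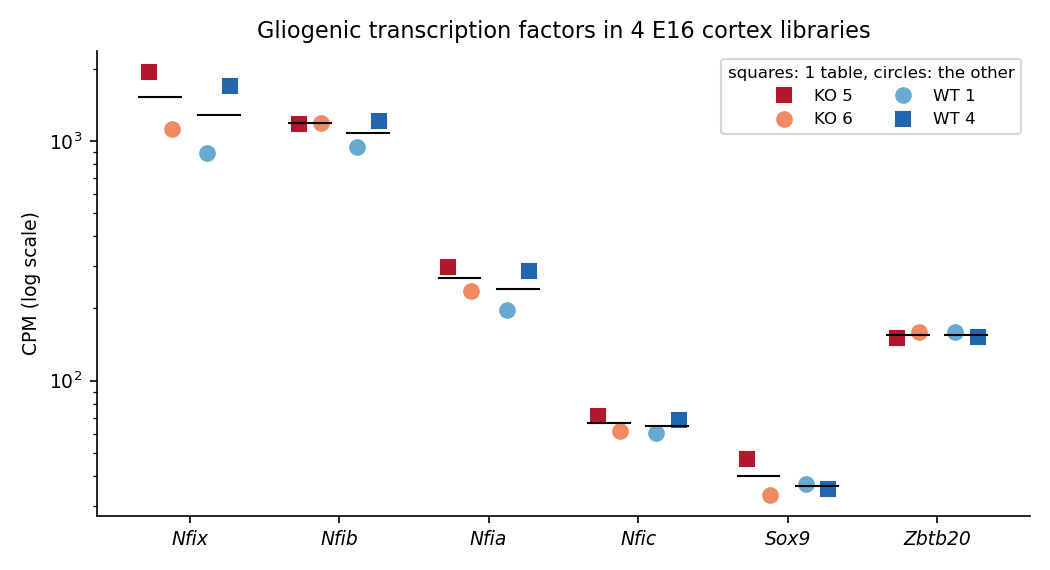
CPM (log scale) of the 6 factors in each library, with KO 5 and KO 6 left of WT 1 and WT 4 for each gene and a bar at the mean of each genotype; squares are the libraries of one deposited table and circles those of the other. The KO and WT points of each gene overlap, and for Nfix the squares of both genotypes lie above the circles.

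Nfix had the highest mean of the 6 and varied most between libraries, though in CPM Nfib exceeded it in KO 6 and in WT 1. The gene lies on chromosome 8 (ENSMUSG00000001911, GRCm38, 84699876 to 84800344, minus strand), and its level ranked 38th among the tested genes. It was at 1940.1 CPM in KO 5 and 1116 CPM in KO 6, against 886 CPM in WT 1 and 1688 CPM in WT 4. KO 5 and WT 4 were high and KO 6 and WT 1 low, so that both libraries of one table were above both of the other. Within each table KO was above WT, by 0.20 on the log2 scale for KO 5 over WT 4 and by 0.33 for KO 6 over WT 1. The mean was 1528 ± 583 CPM in KO and 1287 ± 567 CPM in WT (SD, n = 2 each). The log2 fold change of KO over WT was 0.25 (SE 0.35, 95% interval -0.60 to 1.09), with an edgeR adjusted p of 0.9999. In linear terms the interval runs from 0.662-fold to 2.13-fold. This fit takes no account of the table. The fit with the table as a block, described further on, has a narrower interval that rests mostly on variance pooled over genes.

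RefSeq gives 4 starts of Nfix on GRCm38.p6, each with a window of 250 bases before and 50 bases after it. The window below is shown because Nfix moved most between libraries and this one alone of the 4 holds a SOX-type word, ACAAAG, in capitals. The word was searched on both strands and occurs in 18.7% of 32851 promoter windows of this length, so its presence here describes the sequence and shows no binding.

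Nfix, chr8:84772826-84773125, minus strand: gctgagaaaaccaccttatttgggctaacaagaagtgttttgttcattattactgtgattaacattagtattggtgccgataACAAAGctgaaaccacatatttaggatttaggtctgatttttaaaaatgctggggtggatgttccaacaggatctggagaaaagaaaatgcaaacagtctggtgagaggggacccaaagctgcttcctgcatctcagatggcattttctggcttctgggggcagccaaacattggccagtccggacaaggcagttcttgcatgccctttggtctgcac

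Nfib, the member with the next highest mean, was lowest in WT 1. This gene on chromosome 4 (ENSMUSG00000008575, 82290173 to 82705750, minus strand) was at 1180.1 CPM in KO 5 and 1189 CPM in KO 6, against 946 CPM in WT 1 and 1216 CPM in WT 4. WT 1 was the low library, and WT 4 was above both KO libraries. The mean was 1185 ± 6.39 CPM in KO and 1081 ± 191 CPM in WT (SD, n = 2 each). KO over WT was 0.13 on the log2 scale (SE 0.14, 95% interval -0.21 to 0.48), with an edgeR adjusted p of 0.9999. Its direction turned without WT 1, to -0.036, and within the table of KO 5 and WT 4, to -0.043, while KO 6 over WT 1 gave 0.33.

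Nfia, the member that acts with SOX9 at the onset of gliogenesis, was low in WT 1 and intermediate in KO 6. The gene, also on chromosome 4 (ENSMUSG00000028565, 97772734 to 98118874, plus strand), was at 298 CPM in KO 5 and 236 CPM in KO 6, against 197 CPM in WT 1 and 286 CPM in WT 4. The means were 267 ± 43.9 CPM in KO and 241 ± 62.5 CPM in WT (SD, n = 2 each). The log2 fold change was 0.15 (SE 0.20, 95% interval -0.33 to 0.63), with an edgeR adjusted p of 0.9999. It was -0.093 without WT 1 and -0.029 without KO 5.

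Nfic, known outside the brain for its role in tooth root formation, was the least abundant family member. This gene on chromosome 10 (ENSMUSG00000055053, 81396186 to 81455635, minus strand) was at 71.1 CPM in KO 5 and 61.6 CPM in KO 6, against 60.4 CPM in WT 1 and 68.6 CPM in WT 4. The 4 values lay within a narrow band, again with KO 5 and WT 4 above KO 6 and WT 1. The log2 fold change was 0.040 (SE 0.12, 95% interval -0.25 to 0.33), with an edgeR adjusted p of 0.9999, and -0.048 without WT 1 and -0.066 without KO 5.

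Sox9 was high in 1 KO library only. The gene on chromosome 11 (ENSMUSG00000000567, 112782224 to 112787760, plus strand) had 821 counts in KO 5 and 543 in KO 6, against 661 in WT 1 and 598 in WT 4. In CPM these were 46.9 and 33.5 in KO 5 and KO 6, against 37.2 and 35.1 in WT 1 and WT 4. KO 6 was the lowest of the 4 libraries and KO 5 the highest, while the WT libraries were close together. The mean was 40.2 ± 9.47 CPM in KO and 36.2 ± 1.46 CPM in WT (SD, n = 2 each). KO over WT was 0.15 on the log2 scale (SE 0.17, 95% interval -0.26 to 0.57), with an edgeR adjusted p of 0.9999. Without WT 1 it was 0.20 and without KO 5 -0.11, and without KO 6 it was 0.38 with an unadjusted p of 0.0315 and an edgeR adjusted p of 0.9999. Within the tables the log2 ratio was 0.41 for KO 5 over WT 4 and -0.15 for KO 6 over WT 1.

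Zbtb20 had nearly the same level in all 4 libraries. The gene on chromosome 16 (ENSMUSG00000022708, 42875881 to 43642602, plus strand) was at 150.4 CPM in KO 5 and 159 CPM in KO 6, against 159 CPM in WT 1 and 151 CPM in WT 4. The means were 154.7 ± 6.08 CPM in KO and 155 ± 5.31 CPM in WT (SD, n = 2 each). The log2 fold change was -0.0039 (SE 0.10, 95% interval -0.25 to 0.24), with an edgeR adjusted p of 0.9999. Its interval was the narrowest of the 6, from 0.840-fold to 1.18-fold. The sign changed without WT 1, at 0.032, and without KO 5, at 0.037.

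**Figure D2:**
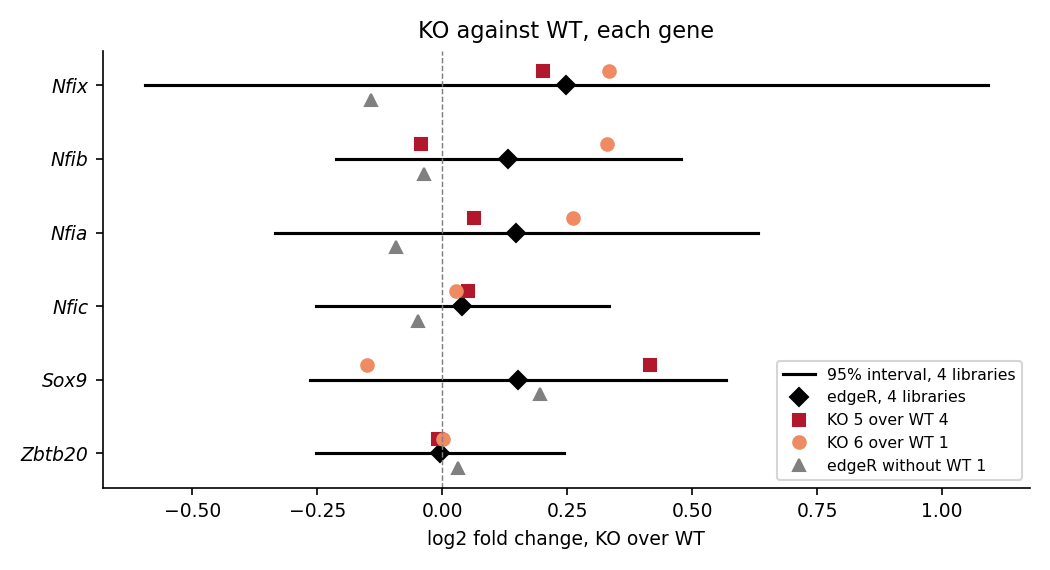
Log2 fold change of KO over WT for each factor: diamonds and lines are the edgeR value and its 95% interval with 4 libraries, squares KO 5 over WT 4, circles KO 6 over WT 1, and triangles the edgeR value without WT 1. Every interval with 4 libraries includes 0, and the Nfix interval, -0.60 to 1.09, is the widest of the 6.

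The p-values that the authors deposited compare 1 library with 1 library, and for the abundant factors they were small in spite of small ratios. For Nfix the authors' deposited table gives 1.16-fold for KO 5 over WT 4, with an adjusted p of 4.58e-71. The authors' deposited table of KO 6 and WT 1 gives 1.24-fold for Nfix, with an adjusted p of 3.35e-84. For Nfib the authors' deposited tables give 0.976-fold for KO 5 over WT 4 (adjusted p 0.0781) and 1.24-fold for KO 6 over WT 1 (adjusted p 5.21e-88). For Sox9 the authors' deposited tables give 1.34-fold (adjusted p 1.6e-06) in the first pair and 0.885-fold (adjusted p 0.0943) in the second. None of the 6 genes is marked significant in the authors' deposited tables, whose mark also needs a change of at least 2-fold. These values carry no spread between libraries of one genotype. That spread was larger than the KO to WT difference for Nfix: KO 5 was 1.74-fold over KO 6 and WT 4 was 1.90-fold over WT 1, against a ratio of KO and WT means of 1.19.

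Differences within a genotype followed the deposited tables for 3 family members. Log2 CPM of Nfix was higher by 0.80 in KO 5 than in KO 6 and by 0.93 in WT 4 than in WT 1. The same differences were 0.34 and 0.53 for Nfia and 0.21 and 0.18 for Nfic. For Nfib they were -0.011 and 0.36, for Sox9 0.48 and -0.082, and for Zbtb20 -0.080 and -0.070. Both differences were above 0 for 3 of the 6 factors and for 28.4% of all tested genes. Both reached 0.5 for 1 of the 6 factors (Nfix) and for 1.2% of all tested genes. Among the 6030 genes at least as abundant as Sox9 they did so for 14 genes, or 0.232%.

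The table term was then read from the edgeR fit that holds genotype and table together, a step added after these values were seen. With few degrees of freedom left per gene, its SEs and p-values rest mostly on variance pooled over genes. Nfix passed, at 0.86 for the table of KO 5 and WT 4 over that of KO 6 and WT 1 (SE 0.098, edgeR adjusted p 0.00125). Nfia was at 0.44 and did not pass (SE 0.097, edgeR adjusted p 0.0561). The other 4 lay between -0.075 and 0.20 and did not pass, with edgeR adjusted p values from 0.447 to 0.826. In that direction 0.464% of all tested genes passed, and 1.15% passed the other way. The labels do not say what the libraries of a table share. The longest annotated Nfix transcript has a GC content of 57.1% and that of Nfic 57.4%, while Nfia, Nfib and Zbtb20 lie between 42.7% and 43.3% and Sox9 at 49.3%. Across 16347 genes, which share these libraries and are not independent, Spearman's rho between GC content and the difference was 0.32 for KO 5 over KO 6 and 0.00058 for WT 4 over WT 1. Within each genotype the ganglionic eminence markers were lower in KO 5 than in KO 6 (271 and 399 CPM) and in WT 4 than in WT 1 (388 and 742 CPM), and the choroid plexus markers moved the same way. The part of GC content and of these markers in the Nfix difference was not tested.

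**Figure D3:**
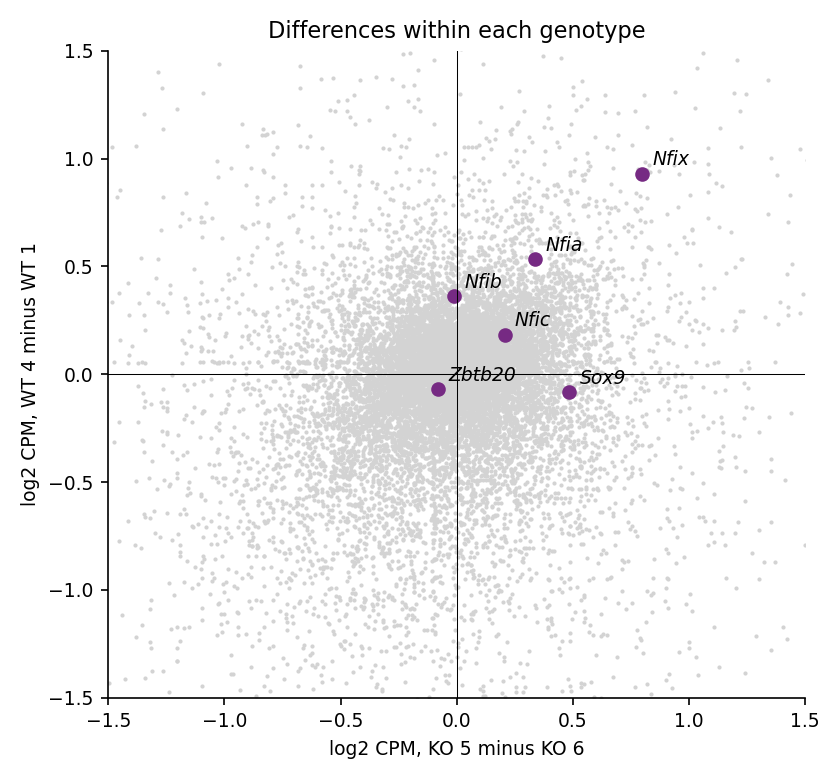
Log2 CPM difference within each genotype, KO 5 minus KO 6 on the horizontal axis and WT 4 minus WT 1 on the vertical axis, for all tested genes (grey) and the 6 factors (purple); 520 genes lie outside the axes. Nfix, at 0.80 and 0.93, is far into the upper right corner, and Zbtb20 lies near the centre.

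Since the table and genotype are balanced, the genotype was also compared with the table as a block. In that edgeR fit 0 of the 6 passed, while 29 of all tested genes, or 0.177%, did. The blocked log2 fold change of Nfix was 0.27 (SE 0.097, 95% interval 0.053 to 0.48), with an unadjusted p of 0.0193 and an edgeR adjusted p of 0.9998. Those of the other 5 lay between -0.0040 (Zbtb20) and 0.16 (Nfia), each with an interval that includes 0. Few degrees of freedom are left per gene in this fit, so its SEs rest mostly on variance pooled over genes. They were nearly equal for Nfix, Nfia (0.097), Nfic (0.095) and Zbtb20 (0.095), and larger for Nfib (0.11) and Sox9 (0.14). The blocked interval of Nfix is therefore not a measure of its own spread between libraries. Without WT 4, which leaves WT 1 as the lone WT library, assumed to vary like the others, Nfix came to 0.79 with an edgeR adjusted p of 0.0801. Without WT 1 it was -0.14, and without KO 5 -0.20.

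Levels of different genes were compared per kilobase of annotated exon, using the union of exons in GENCODE release M21. On that scale, CPM per kilobase, Nfix was at 207.9 ± 79.3 in KO and 175 ± 77.1 in WT (SD, n = 2 each). Nfib followed at 79.2 ± 0.427 in KO and 72.3 ± 12.7 in WT, and Nfia at 24.6 ± 4.03 and 22.2 ± 5.74. Nfic was at 10.7 and 9.29 in KO 5 and KO 6, against 9.11 and 10.3 in WT 1 and WT 4. Sox9 was at 9.71 ± 2.29 and 8.75 ± 0.353, and Zbtb20 at 5.03 ± 0.198 and 5.05 ± 0.173. The order Nfix, Nfib, Nfia held in each library, and each of these lay above Nfic, Sox9 and Zbtb20. Nfic and Sox9 did not differ beyond their spread: Sox9 exceeded Nfic in KO 5, at 11.3 against 10.7, and was below it in the other 3 libraries. The union of exons counts every annotated isoform, which for Zbtb20 adds up to 30730 bases, so per-length levels of genes with many alternative exons are low estimates.

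Nfix made up most of the summed family level in each library. The sum of the 4 family genes was 381 and 262 CPM per kilobase in KO 5 and KO 6, against 211 and 347 CPM per kilobase in WT 1 and WT 4. It differed 1.45-fold between the KO libraries and 1.65-fold between the WT libraries, and by 1.15-fold between the means of KO and WT. Nfix took 69.3% and 57.9% of the sum in KO 5 and KO 6, and 57.1% and 66.1% in WT 1 and WT 4. Nfib took 20.7% and 30.3% in the KO libraries, and 30.0% and 23.4% in the WT libraries. Nfia held 7.19% to 8.27% of the sum in KO and 7.55% to 8.58% in WT, and Nfic 2.81% to 3.54% in KO and 2.98% to 4.32% in WT. The shares overlapped between genotypes for all 4 genes. With 2 libraries against 2, no exact permutation test of a single value can give a p below 0.333, so none was run.

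**Figure D4:**
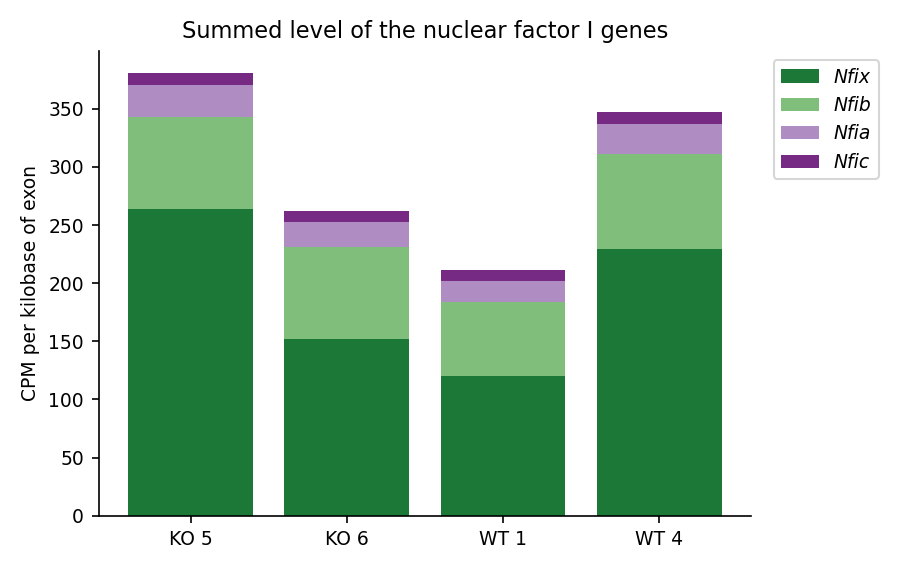
Summed level of the 4 nuclear factor I genes, in CPM per kilobase of exon, stacked by gene for KO 5, KO 6, WT 1 and WT 4. The sums are 381, 262, 211 and 347, and Nfix is the largest block in each library.

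Genes around these factors were read from 3 lists, and none of their members passed with 4 libraries. The first list held 15 genes described as targets of NFI, SOX9 or ZBTB20 or as astroglial genes, and the second 16 transcription regulators of glial progenitors, of which 14 had enough counts. The third held 9 factors of neurogenesis and neural progenitors. Some listed targets are also on the marker lists, Fabp7 and Slc1a3 as radial glia markers. The targets also mix genes that the factors activate with genes they repress, such as Hes1, Ezh2 and Pou3f2. The median and counts of that list therefore do not read as factor activity. By edgeR 0 of 15, 0 of 14 and 0 of 9 were called, against 0.0122% of all genes, and 2, 2 and 0 had an unadjusted p under 0.05, against 1.94% of all genes. The median log2 fold changes were 0.026, -0.062 and 0.025, against -0.0028 over all genes. Without WT 1 they were 0.078, 0.0865 and -0.065, so those of the partners and the neurogenic factors turned and that of the targets was larger. The untested Dbx2 and Atf3 had at most 12 counts in a library.

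Both KO libraries were above both WT libraries in 5 of the 15 target genes, where 11.5% of all tested genes were, and both were below in 0, against 11.9% of all tested genes. The 5 were Gfap, Slc1a2, Insc, Mmd2 and Cntn2. As the list was chosen with earlier results of these data known, 5 of 15 is a description only. Gfap, the astrocyte intermediate filament gene, was at 4.28 and 5.49 CPM in KO 5 and KO 6, against 1.13 and 3.11 CPM in WT 1 and WT 4. Its log2 fold change was 1.20 (SE 0.48, 95% interval 0.049 to 2.36), with an edgeR adjusted p of 0.9999. In the authors' deposited tables Gfap in KO 6 over WT 1 was 4.80-fold and marked significant. Gfap in KO 5 over WT 4 was 1.38-fold there and not marked. Without WT 4 the edgeR value was 2.11 and passed (adjusted p 0.00494), where 1.82% of all genes tested were called, and without WT 1 it was at 0.65 (edgeR adjusted p 0.9999). The summed level of 7 astrocyte markers, Gfap among them, was 266 and 236 CPM in KO 5 and KO 6, against 238 and 228 CPM in WT 1 and WT 4. The 6 of these markers tested went both ways, 3 higher and 3 lower by their log2 fold changes, with a median of -0.032, or 0.18 without WT 1. Aqp4, the astrocyte water channel gene, had 26 and 39 counts in KO 5 and KO 6, against 58 and 21 in WT 1 and WT 4, a log2 fold change of -0.22 (SE 0.53), or 0.65 without WT 1.

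Slc1a2, the gene of the glutamate transporter GLT-1, was at 52.8 and 58.6 CPM in KO 5 and KO 6, against 39.7 and 47.7 CPM in WT 1 and WT 4. Its log2 fold change was 0.35 (SE 0.13, 95% interval 0.034 to 0.67, edgeR adjusted p 0.9999), and 0.22 without WT 1. Mmd2, a gene activated by NFIA and SOX9 together in glial precursors, was at 98.5 and 94.7 CPM in the KO libraries, against 72.9 and 92.6 CPM in WT 1 and WT 4. Its log2 fold change was 0.22 (SE 0.13, 95% interval -0.098 to 0.54, edgeR adjusted p 0.9999) and 0.062 without WT 1. Cntn2, the gene of the axonal adhesion molecule TAG-1 and an NFI target in cerebellar granule neurons, was at 1345 and 1256 CPM in KO 5 and KO 6, against 966 and 1233 CPM in WT 1 and WT 4, or 0.24 on the log2 scale (SE 0.14) and 0.078 without WT 1. For Mmd2 and Cntn2 the separation from WT 4 was small, as WT 1 was the low library. Insc, the gene of the spindle orientation factor Inscuteable, had only 12 and 13 counts in KO 5 and KO 6, against 10 and 7 in WT 1 and WT 4. The log2 fold change of Insc was 0.60 (SE 0.48), and 0.84 without WT 1.

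The promoter windows of Mmd2 and Gfap are shown because they belong to a joint NFIA and SOX9 target and to the listed gene with the largest difference. Capitals mark TTGGCA, a short NFI word searched on both strands, which occurs in 14.1% of the 32851 windows and in 4 of the 11 windows found for target genes. The full NFI palindrome, TTGGC and GCCAA around a spacer, searched likewise, occurs in 0.037% of all windows and in 0 of the 11. The Gfap window holds none of these words and no ACAAAG, which says nothing about other parts of its regulatory region.

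Mmd2, chr5:142608703-142609002, minus strand: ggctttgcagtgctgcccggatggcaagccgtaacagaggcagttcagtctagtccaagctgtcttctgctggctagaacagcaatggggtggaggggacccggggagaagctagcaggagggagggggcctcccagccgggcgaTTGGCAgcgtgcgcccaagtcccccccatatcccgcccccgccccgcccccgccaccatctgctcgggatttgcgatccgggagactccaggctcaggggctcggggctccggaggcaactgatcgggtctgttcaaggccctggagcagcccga
Gfap, chr11:102897151-102897450, minus strand: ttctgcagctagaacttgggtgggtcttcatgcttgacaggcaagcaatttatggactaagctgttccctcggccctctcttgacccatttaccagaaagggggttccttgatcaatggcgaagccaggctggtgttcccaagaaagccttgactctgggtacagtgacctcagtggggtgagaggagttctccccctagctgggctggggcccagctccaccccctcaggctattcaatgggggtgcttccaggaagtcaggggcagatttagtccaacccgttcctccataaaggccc

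Other target genes overlapped between the genotypes. Apcdd1, an inhibitor of Wnt signalling activated by NFIA and SOX9, was at 97.3 and 79.0 CPM in KO 5 and KO 6, against 87.5 and 85.6 CPM in WT 1 and WT 4. For Apcdd1 the log2 fold change was 0.026 (SE 0.12), or 0.044 without WT 1. Fabp7, the radial glial fatty acid-binding protein gene controlled by NFI, had a log2 fold change of -0.13 (SE 0.23), and its highest value, 571 CPM, was in WT 1, without which it turned to 0.21. Slc1a3, the gene of the glutamate transporter GLAST, was at -0.019 (SE 0.11), or 0.082 without WT 1. Hes1 and Ezh2, which NFI factors are known to repress in hippocampal or cortical progenitors, differed by -0.12 (SE 0.22) for Hes1 and -0.047 (SE 0.10) for Ezh2 on the log2 scale, and by -0.19 and -0.063 without WT 1. Pou3f2, the gene that ZBTB20 represses, was at 242 and 241 CPM in KO 5 and KO 6, against 225 and 250.1 CPM in WT 1 and WT 4, a log2 fold change of 0.023 (SE 0.11), which turned to -0.049 without WT 1. None of these had an unadjusted p under 0.05.

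**Figure D5:**
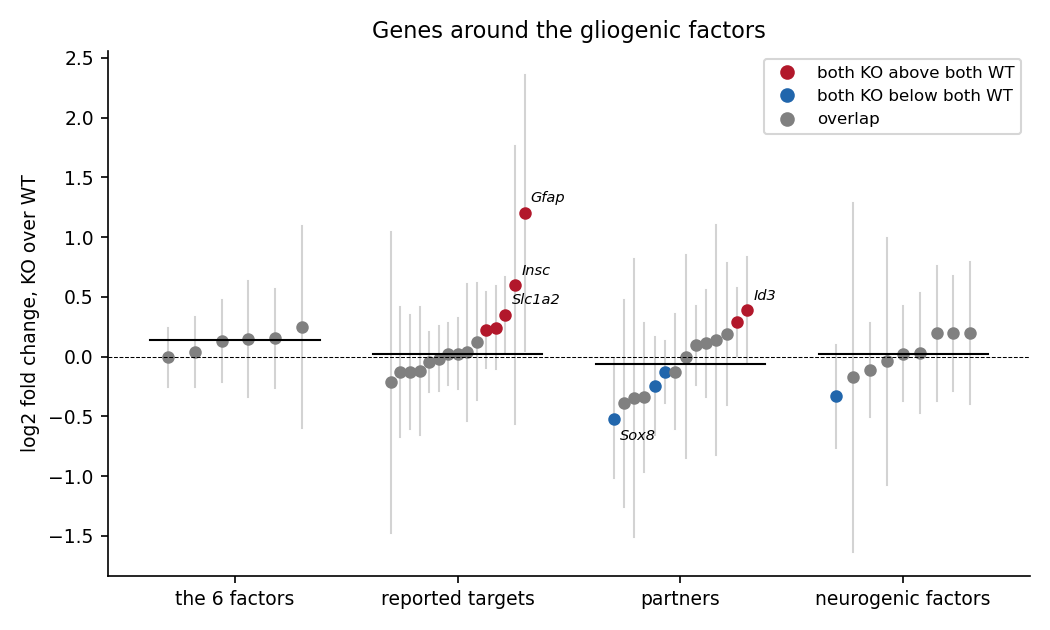
Log2 fold change of KO over WT with its 95% interval (grey lines) for the 6 factors, the 15 listed target genes, 14 partners and 9 neurogenic factors; black bars are medians, red and blue points are genes whose KO libraries lie above or below both WT libraries, and such targets and partners of at least 0.3 in size are named. Gfap, at 1.20, has the highest value, and the 6 factors hold no red or blue point.

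Among the 14 partners tested, both KO libraries were above both WT libraries in 2 (Stat3 and Id3) and below in 3 (Sox8, Olig1 and Nr2f1). Of all tested genes 11.5% were above in this way and 11.9% below. The log2 fold change was -0.25 for Olig1 and -0.13 for Nr2f1, or -0.17 and -0.091 without WT 1. For Nr2f1 the separation was very small, at 125.7 CPM in KO 6 against 126.6 CPM in WT 4. Sox8, a close relative of Sox9, was at 22.7 and 19.0 CPM in KO 5 and KO 6, against 35.6 and 24.3 CPM in WT 1 and WT 4. Its log2 fold change was -0.52 (SE 0.21, 95% interval -1.02 to -0.022, edgeR adjusted p 0.9999), and -0.22 without WT 1. Stat3, the effector of gliogenic cytokine signals, was at 38.2 and 36.4 CPM, against 29.1 and 31.9 CPM, or 0.29 on the log2 scale (SE 0.12), with an edgeR adjusted p of 0.9999, and 0.23 without WT 1. Id3, a BMP-responsive inhibitor of proneural factors, was at 25.7 and 20.2 CPM in the KO libraries, against 15.8 and 19.3 CPM in the WT libraries, or 0.39 on the log2 scale (SE 0.18) and 0.25 without WT 1. Nr2f2 overlapped between the genotypes, with a log2 fold change of -0.34 (SE 0.26), which turned to 0.13 without WT 1.

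The listed genes most like each factor over the 4 libraries were found by the root-mean-square difference of centred log2 CPM, among 43 candidates. Nfia was nearest to Hey1, a Notch target, at 0.031, and to Lhx2, a cortical selector gene, at 0.072. Lhx2 was also nearest to Nfix, at 0.15, followed by Eomes, a gene of intermediate progenitors, at 0.19. Nfib was nearest to Mmd2, at 0.051, and Cntn2, at 0.067, which share its low value in WT 1. Nfic was nearest to Rfx4 and Pou3f2, at 0.042 and 0.071, and Sox9 to Apcdd1 and Btg2, at 0.088 and 0.13. Zbtb20 varied so little, by 0.038 about its own mean, that its nearest genes Slc1a3 and Npas3 were farther from it than that. With 4 libraries these distances are descriptions only.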

How the data were processed

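Whole counts per Ensembl gene in 2 KO and 2 WT libraries were used as deposited by the authors. HTSeq 0.6.0, TopHat2 2.0.12 and Bowtie2 2.2.3, with the build mm9, are listed in the submitters' processing notes without their roles. Whether counting used strand is not given in the sources used here. Of 23279 genes found in GENCODE M21 (GRCm38), 92.1% have its exact position, so coordinates are those of GRCm38. The deposited CPM are counts scaled by the authors to each library's total. The deposited fold change is KO over WT within a table, the deposited log2 value its logarithm, and the p-values, plain and adjusted, were deposited from a tool the file headers do not name.

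Genes in both tables that passed filterByExpr, 16371, were fitted in R 4.3.3 with edgeR 4.0.16 (TMM, estimateDisp, quasi-likelihood test, Benjamini-Hochberg adjustment, two-sided, threshold 0.05). CPM in the text are TMM-scaled, 1 count being 0.0563 to 0.0616 CPM. Intervals are the fold change ± the 95% t quantile times its SE. Log2 CPM differences used a prior count of 2. Alternatives were DESeq2 1.42.0, limma-voom (limma 3.58.1), RLE scaling, no filter, genes of 1 table kept, the table as a block and leaving out each library. The fit was tested on simulated counts with no table difference and less spread than these data. The data had a common biological coefficient of variation of 0.172, so that test does not give the power of the fit here. Counts of same-genotype libraries differed beyond sampling noise (chi-square per degree of freedom 17.9 in KO and 16.3 in WT). Promoter sequences are RefSeq windows on GRCm38.p6, found for Nfia, Nfic, Nfix and Zbtb20 among the members.

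The members and gene lists were chosen with earlier results of these data known. Named genes are the 6 members, then genes of the 3 lists that were called, have the smallest p (up to 6 per list) or are nearest in pattern. Not every gene that meets this rule is named, and neurogenic factors are named only as nearest patterns. Apcdd1, Aqp4, Fabp7, Hes1, Ezh2, Pou3f2 and the non-overlapping genes outside that rule were chosen after their values were seen. The result of 1 listed neurogenic factor is not reported here.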

Additional observations from a re-analysis of the deposited data

How the results depend on the processing

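No factor was called under any of the 10 other fits, and the 36 values from fits that kept all 4 libraries kept their direction. Leaving out 1 library turned 10 of 24 values. The ranges over these 4 fits were -0.20 to 0.79 for Nfix, -0.036 to 0.33 for Nfib, -0.093 to 0.45 for Nfia, -0.066 to 0.14 for Nfic, -0.11 to 0.38 for Sox9 and -0.040 to 0.037 for Zbtb20 (log2, KO over WT). Within a table, 3 values moved by more than the spread between libraries: Nfib to 0.33 in KO 6 over WT 1, and Sox9 to 0.41 in KO 5 over WT 4 and -0.15 in KO 6 over WT 1. Directions turned within a table for Nfib (-0.043 in KO 5 over WT 4), for Sox9 as given, and for Zbtb20 (0.0012 in KO 6 over WT 1). Genes called over the whole table numbered 2 with edgeR, 8 with DESeq2, 29 with the table as a block and 5 to 312 when 1 library was left out, the last without WT 4; the cause was not tested. Target genes called numbered 0 to 1 when 1 library was left out. Not divided by length, family shares in KO and WT were 49.2% and 47.1% for Nfix, 39.7% and 41.3% for Nfib, 8.82% and 9.10% for Nfia and 2.2% and 2.50% for Nfic, since the genes differ in exon length. KO and WT libraries share no replicate number, so the only pairing fitted was the deposited table as a block. The printed intervals give the precision of each fold change and are not limits of detection. Cd93, at -2.32 with a 95% interval of -2.92 to -1.72, was not called by edgeR with 4 libraries (adjusted p 0.21). With 2 libraries per genotype, the lack of a call does not show the lack of a change.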

Other observations

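Some annotated genes overlap the loci of the 6 factors, and without a known strand setting their reads cannot all be told apart from those of the factors. Gm11266, an antisense gene in the Nfib locus that shares no exon base with it, had 1018 and 936 counts in KO 5 and KO 6, against 822 and 1030 in WT 1 and WT 4. Like Nfib it was lowest in WT 1. E130114P18Rik, which lies on the other strand of Nfia and shares 4 exon bases with it, had 643 and 579 counts in KO 5 and KO 6, against 538 and 537 in WT 1 and WT 4. G430095P16Rik shares 137 exon bases with Nfix on the other strand and had 14 to 21 counts in KO and 16 to 17 in WT. These genes were chosen after their values were seen.

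Few 25-base words of the factors' transcripts occur in other genes: 0.827% for Nfib, 0.948% for Zbtb20, 1.23% for Nfia, 1.25% for Nfic, 2.28% for Nfix and 3.24% for Sox9. Between the family members themselves the share was at most 0.18%, for Nfic.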
